A study of Mus musculus with 24 samples.

Results

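Fatty acids enter a cell and are stored or used through a short chain of proteins, and the promoters of 10 such genes were followed here in H3K9ac peak lists of 4T1 spheroids. The genes were taken as listed: Cd36 (a scavenger receptor that takes up long-chain fatty acids), Lpl (lipoprotein lipase, which frees fatty acids from circulating triglyceride), Slc27a1, Slc27a3 and Slc27a4 (fatty acid transport proteins with acyl-CoA synthetase activity), Fabp3, Fabp4 and Fabp5 (cytosolic fatty acid binding proteins), and Dgat1 and Dgat2 (the enzymes that make triglyceride from diacylglycerol). They are 10 of the 21755 protein-coding genes on chromosomes 1 to 19 and X in GENCODE vM21. H3K9ac is the acetylation of lysine 9 on histone H3, which is found at the promoters of active genes. Imported palmitate that is not stored can be carried into mitochondria through CPT1a and oxidised to acetyl-CoA, the donor used by acetyltransferases such as KAT2a.

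4T1 is a mouse mammary carcinoma cell line, here grown as spheroids that were collected on day 5. The 4 groups had 3 libraries each: scramble cells, CPT1a knockout cells and KAT2a knockout cells in medium with 75 µM palmitate, and CPT1a knockout cells given 5 mM acetate. The label of the acetate group does not mention palmitate, while the study describes its spheroids with and without acetate as grown with it. According to the study's methods, the cells carried a doxycycline-inducible Cas9 and lentiviral guides, and the control guide was directed against EGFP. The lines were selected with puromycin, and the methods mention no cloning of single cells. Nothing in the labels says whether the 3 libraries of a group came from separate cultures, so p-values measure the spread between these libraries, which may be technical.

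The lists held between 16201 and 34330 peaks after chromosome Y was set aside. Read depth is not stated, and the fragment coverage at which each list was called was worked out from the deposited values as 1.87 to 2.516 in scramble, 0.554 to 1.70 in CPT1a knockout, 0.66 to 1.91 in CPT1a knockout with acetate and 1.02 to 1.82 in KAT2a knockout. Depth thus differed between the groups, and its part in the results was not tested beyond the equal-depth and left-out-library values given for some of them. At the genome-wide background level, the lowest fold enrichment that could be called was 3.13 to 3.86, so a missing peak means a signal not detectable at that depth and not its absence. The promoters of Cpt1a and Kat2a carried a peak in 12 of 12 lists. A promoter peak does not check a knockout made in coding exons. Of the epithelial markers, 6 of 8 had a promoter peak in all 12 lists, among them Krt8, Krt18 and Epcam, and a further one, Krt14, in the 3 KAT2a knockout lists only (in none at equal calling depth). At equal calling depth Krt19 was lost in all 3 scramble lists and kept in the other 9. In contrast, none of the 6 adipocyte markers (Adipoq and Plin1 among them) and none of the 6 endothelial markers had one in any list. Of the 6 macrophage and leukocyte markers, Cd68 alone was called, in 2 scramble lists. Of the 6 fibroblast markers, Pdgfra was called in 12 lists, Col1a1 in 11 and the other 4 in none.

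To ask which of the uptake and binding genes carried the mark, promoter peaks were collected within 1 kb of every annotated transcription start site (TSS). Fabp5, Slc27a1, Slc27a4, Dgat1 and Dgat2 had a promoter peak in 12 of 12 lists. Cd36, Lpl, Fabp3 and Fabp4 had none in any of the 12, and no peak lay within their gene bodies either. Slc27a3 was called in 1 list. Among all protein-coding genes, 49.5% were called in all 12 lists, 45.1% in no list and 0.777% in exactly 1. Both triglyceride-forming enzymes were thus in the called class, and within the transporter and binding protein families some genes were called and others were not. The calls of these 10 genes did not separate the groups: apart from the single Slc27a3 peak, each gene was either called in every library or in none.

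**Figure D1:**
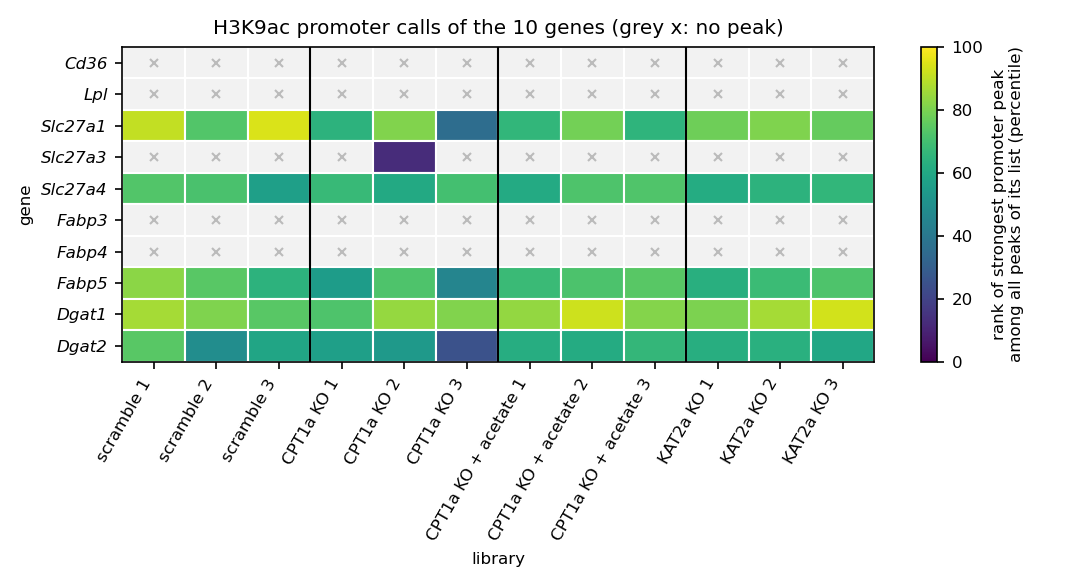
Promoter calls of the 10 genes (rows) in the 12 libraries (columns, separated by group). Colour gives the percentile of the strongest promoter peak among all peaks of its own list and a grey cross marks a promoter without a peak; 5 genes were called in every list, 4 in none, and Slc27a3 only in CPT1a knockout replicate 2.

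The uncalled loci differed in how far they lay from any H3K9ac peak. The nearest peak to the first TSS of Cd36 (chr5:17781690-17888801, GRCm38) was 2812709 to 2812843 bp away in 11 lists, and 1597301 bp away in CPT1a knockout replicate 1. The median distance of Cd36 stood at the 99.7 percentile of the 9811 genes without a promoter peak in any list, whose own median was 88273 bp. Cd36 thus lay farther from a called peak than nearly all uncalled genes. Lpl (chr8:68880491-68907448) had its nearest peak at 84893 to 85610 bp, close to that median. Fabp3 (chr4:130308595-130315463), the heart and muscle binding protein, had one at 22189 bp in scramble replicate 3 and at 31716 to 32883 bp in the other 11 lists. The window of Fabp3 also holds the start of Gm10570, a protein-coding gene on the opposite strand, and no other gene started within the window of any of the 10.

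Fabp4 (chr3:10204088-10208576), the adipocyte binding protein, and Fabp5 (chr3:10012548-10016607), the epidermal one, are neighbours in a cluster of related genes. Their first TSSs are 196028 bp apart. The nearest peak to Fabp4 lay at 120146 to 121496 bp. Fabp9, Fabp12 and Pmp2 (myelin protein 2, a further member of the family), which lie in the same cluster (Pmp2 was added after the calls were seen), were not called in any list. Within this cluster, Fabp5 was called in 12 lists and Fabp4, Fabp9, Fabp12 and Pmp2 in 0.

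The Slc27a3 peak (chr3:90388839-90389233), found in CPT1a knockout replicate 2, was 395 bp wide, started 705 bp downstream of the first TSS over coding sequence of exons 1 and 2 and had a fold enrichment of 4.54, at the 12.4 percentile of its list. In the other 11 lists the nearest peak was 28182 to 42314 bp away. At equal calling depth this peak was lost, so Slc27a3 then joined the genes without a call.

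Promoter sequence was at hand in RefSeq for 5 of the 10 genes (GRCm38.p6), and the bases just upstream of the start are shown so that called and uncalled promoters can be set side by side. Capitals mark CpG dinucleotides, and bases that GENCODE places in an exon were left out. Slc27a4 (chr2:29802384-29802633, plus strand) and Slc27a1 (chr8:71568621-71568870, plus strand) were called in all lists, Slc27a3 (chr3:90389939-90390188, minus strand) in 1, and Fabp3 (chr4:130308488-130308594, plus strand) and Cd36 (chr5:17835897-17836146, minus strand, an intronic start downstream of the gene's first TSS) in none.
Slc27a4: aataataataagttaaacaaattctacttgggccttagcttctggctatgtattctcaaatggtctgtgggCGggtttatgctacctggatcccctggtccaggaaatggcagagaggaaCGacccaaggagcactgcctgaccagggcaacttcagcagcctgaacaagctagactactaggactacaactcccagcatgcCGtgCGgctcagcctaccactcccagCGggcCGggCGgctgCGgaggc
Slc27a1: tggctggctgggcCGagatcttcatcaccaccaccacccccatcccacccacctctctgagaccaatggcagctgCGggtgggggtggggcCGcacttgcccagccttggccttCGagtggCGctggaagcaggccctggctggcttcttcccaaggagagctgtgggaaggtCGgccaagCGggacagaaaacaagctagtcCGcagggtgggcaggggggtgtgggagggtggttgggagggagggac
Slc27a3: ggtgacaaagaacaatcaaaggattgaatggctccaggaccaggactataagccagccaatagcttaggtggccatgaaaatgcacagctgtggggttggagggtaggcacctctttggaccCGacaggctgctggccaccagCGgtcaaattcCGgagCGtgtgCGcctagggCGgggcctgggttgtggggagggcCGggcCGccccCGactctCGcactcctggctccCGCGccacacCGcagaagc
Fabp3: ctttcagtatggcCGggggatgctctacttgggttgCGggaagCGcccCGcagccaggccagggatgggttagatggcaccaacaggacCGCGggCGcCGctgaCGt
Cd36: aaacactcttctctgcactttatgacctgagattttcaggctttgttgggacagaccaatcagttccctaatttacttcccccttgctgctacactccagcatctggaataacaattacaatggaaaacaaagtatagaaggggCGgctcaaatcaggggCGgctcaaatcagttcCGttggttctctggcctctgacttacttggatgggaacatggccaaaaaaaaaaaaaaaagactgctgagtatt

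In the 250 bases before the RefSeq start, Slc27a4 and Slc27a1 held 8 CpGs each, Slc27a3 held 13, Fabp3 held 17 and Cd36 held 3. The median was 17 CpGs over the 8529 matched genes called in all lists and 3 over the 7107 called in none. Both called transporters thus had fewer CpGs than the typical called promoter, and Fabp3 had more than the typical uncalled one. Letters of common promoter elements were then searched on both strands of these 250 bases. GGGCGG (GC box) was found in Slc27a4, Slc27a3 and Cd36, and in 33.2% of the 26794 promoters of the table. CCAAT was found in Slc27a1, Slc27a3 and Cd36, against 34.7% of all. AGGTCA, the half-site of many nuclear receptors, was found in Cd36 and in 13.8% of all, while TATAAA (13.0% of all) and CACGTG (6.09% of all) were found in none of the 5. A match describes letters and not a bound site.

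These windows also show where the peaks began. The 250 bases printed for Slc27a4 were not touched by a peak in any of the 3 scramble lists, whereas peaks covered 17.2% to 91.2% of them in 7 of the 9 other lists and 0% in CPT1a knockout with acetate replicate 2 and KAT2a knockout replicate 3. For Slc27a1 they were covered in CPT1a knockout replicates 1 and 2 (16% and 24.8%) and in CPT1a knockout with acetate replicate 3 (100%). No peak covered any base of the Slc27a3, Fabp3 and Cd36 windows.

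The 5 called genes differed in the place and extent of their mark. At Fabp5 the strongest summit lay 304 to 391 bp downstream of the first TSS, in a merged region of 2912 bp (chr3:10011613-10014524) over the first exon. At Slc27a4 (gene chr2:29802634-29817522) it lay 283 to 748 bp downstream, in a region of 1576 bp (chr2:29802406-29803981) that holds the non-coding part of exon 1 and intron. At Dgat1 (gene chr15:76502015-76511953, minus strand) it lay 399 to 596 bp downstream, in a region of 2990 bp (chr15:76509907-76512896). Dgat2 (gene chr7:99153658-99182719, minus strand) was the exception, with its summit upstream, at -253 to -180 bp from the TSS, in a region of 1488 bp (chr7:99182087-99183574). No other annotated gene overlapped these regions.

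**Figure D2:**
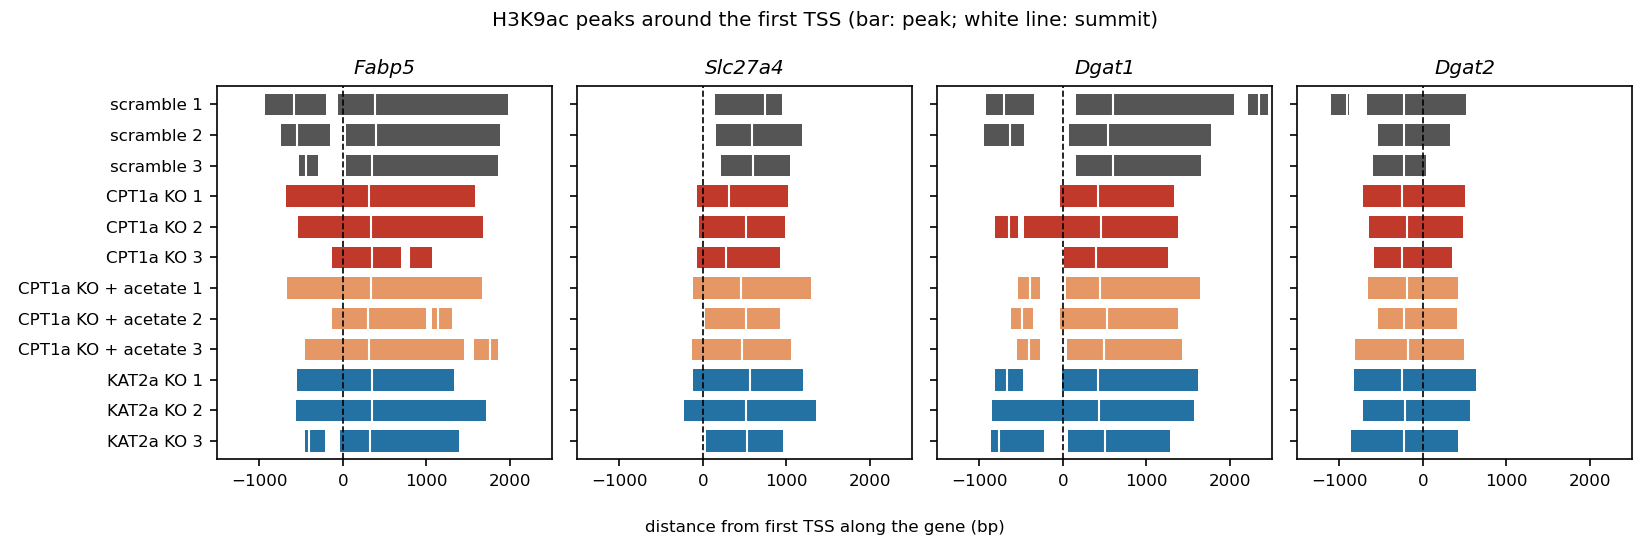
H3K9ac peaks of Fabp5, Slc27a4, Dgat1 and Dgat2 in each library (rows, coloured by group), against distance from the first TSS along the gene in bp. Bars are peaks and white lines their summits; in the 3 scramble libraries the strongest Slc27a4 and Dgat1 peaks start downstream of the TSS, which is covered in 7 (Slc27a4) and 5 (Dgat1) of the 9 other libraries, while the Dgat2 summit is upstream in all 12.

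Slc27a1 (chr8:71568882-71587302), the transport protein of muscle and fat, carried a domain rather than a single promoter peak. Peaks overlapped 16.3% to 63.8% of the 18421 bp gene, in 5 to 12 pieces. Over the 12 lists these made up 5 stretches, and 3 of them were present in every list. The first (chr8:71568596-71573849) ran over exons 1 to 4, and its peaks reached a fold enrichment of 32.2. Another pair (chr8:71578094-71580362 and chr8:71580393-71583459) lay 9212 to 14577 bp downstream around further annotated starts and reached 9.39 and 10.2. Between them, an intronic region (chr8:71574029-71576052) was called in 11 lists and missing in CPT1a knockout replicate 3, the library of lowest depth. A smaller intronic region (chr8:71577319-71578011) was called in 3 of 3 scramble lists, 1 of 3 CPT1a knockout lists and in none of the 6 lists of the other groups. Scramble lists were also the longest, with at least 29153 peaks against at most 24594 elsewhere, and the part of list length in this difference was not tested. The strongest summit of Slc27a1 was 2134 to 2379 bp downstream of the first TSS in 11 lists and 990 bp downstream in CPT1a knockout replicate 3, so its rank in that library came from another peak.

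**Figure D3:**
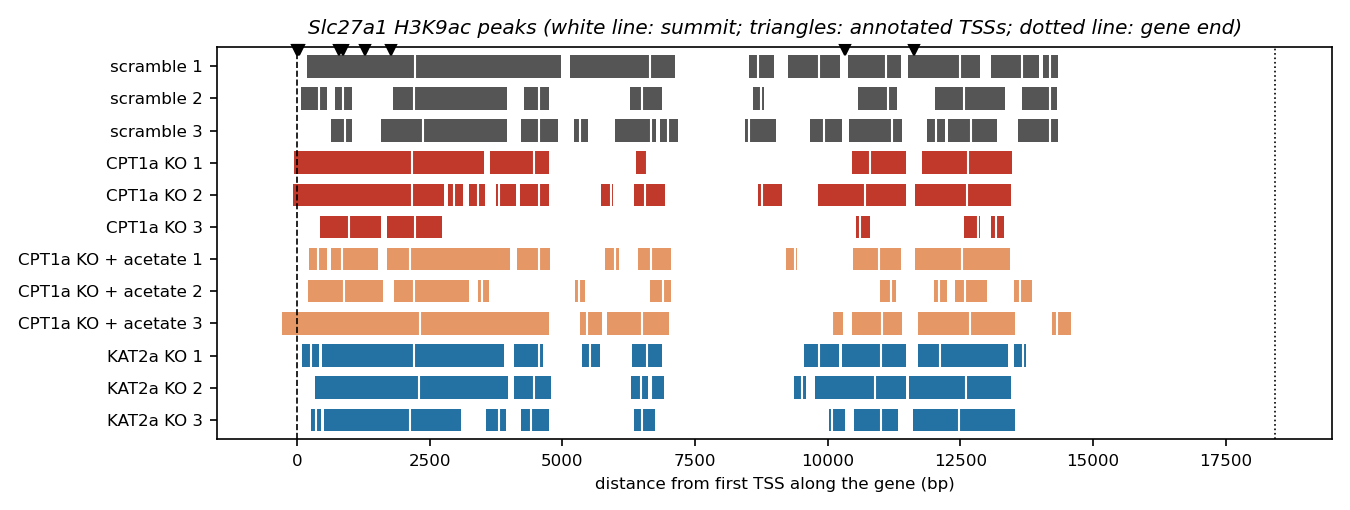
H3K9ac peaks over Slc27a1 in each library (rows, coloured by group), against distance from the first TSS in bp. Triangles mark annotated TSSs and the dotted line the gene end at 18421 bp; the stretches near the start and between 9212 and 14577 bp are filled in all 12 libraries, and CPT1a knockout replicate 3 has the least covered sequence.

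To compare the strength of the mark, the fold enrichment of the strongest promoter peak was turned into a rank percentile among the 10777 genes called in all 12 lists, where 100 is the strongest gene of a library. The order of the 5 genes was similar in the groups at its ends: Dgat1 or Slc27a1 had the highest mean in every group and Dgat2 the lowest. In scramble the means were 58.9 ± 26.7 for Slc27a1, 41.3 ± 14.4 for Dgat1, 28.0 ± 15.5 for Fabp5, 16.3 ± 10.2 for Slc27a4 and 10.2 ± 9.01 for Dgat2 (SD, n = 3). The library ranges of neighbours in that order overlapped. None of the 5 genes changed rank at an adjusted p under 0.05 in any of the 4 comparisons (limma, adjusted over all 10777 genes). Of all genes, 9.98% changed in CPT1a knockout against scramble, 4.08% in KAT2a knockout against scramble, 5.55% in CPT1a knockout with acetate against scramble and 0.0186% between the CPT1a knockout groups with and without acetate. At an unadjusted p under 0.05 the counts were 1, 0, 1 and 1 of 5, against 26.8%, 20.8%, 22.1% and 9.02% of all genes. The first 3 comparisons share the scramble libraries and are not independent of each other.

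**Figure D4:**
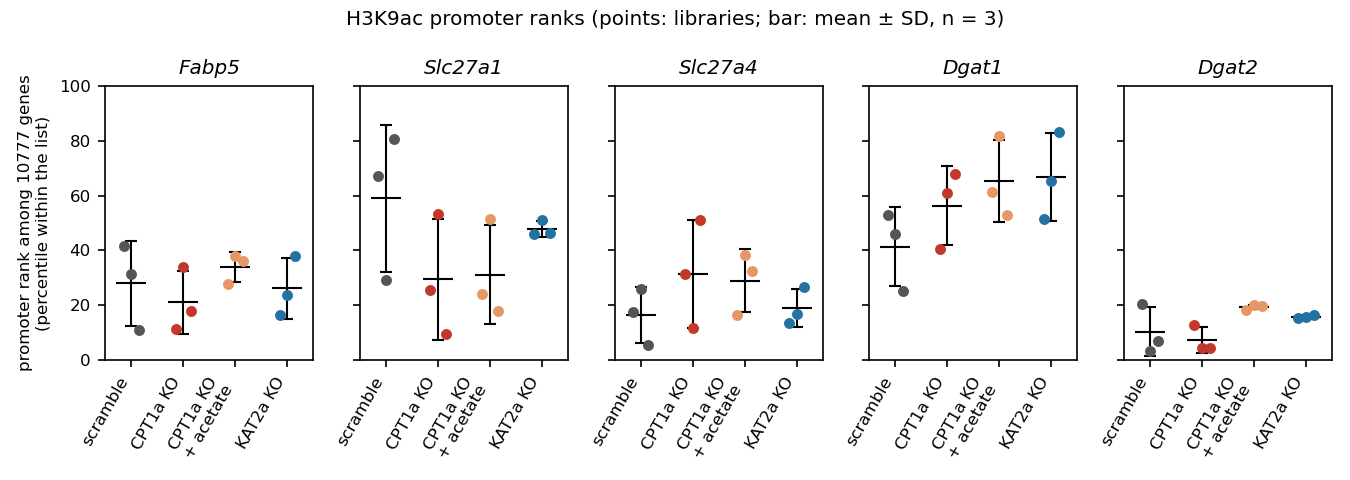
Promoter rank of each called gene (percentile within its list among 10777 genes, vertical axis) by group. Points are libraries and bars the mean ± SD (n = 3); the points of scramble and the knockouts overlap for every gene, and Dgat2 is lowest on average in each group.

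Dgat2, the diacylglycerol acyltransferase of the endoplasmic reticulum and lipid droplets, was the gene with the smallest p over the 4 groups (limma F-test, adjusted p = 0.198). Its ranks were 20.4, 3.38 and 6.85 in scramble, 12.7, 4.40 and 4.43 in CPT1a knockout, 18.3, 19.9 and 19.6 in CPT1a knockout with acetate, and 15.4, 15.5 and 16.5 in KAT2a knockout. All 3 libraries with acetate lay above all 3 without it, and 1 scramble library lay above both. The difference between acetate and no acetate was 12.1 percentiles (SE 4.16, 95% interval 3.23 to 20.9, limma adjusted p = 0.425). The exact permutation p was 0.1, the smallest that 3 against 3 libraries can give. Of all genes, 14.2% had ranks that did not overlap in this comparison, and of the 5 genes Dgat2 alone did. Acetate against scramble gave 9.04 (SE 4.16, adjusted p = 0.217, exact permutation p = 0.4), and leaving out 1 library moved it from 5.62 to 14.1. It passed the threshold when genes were ranked by −log10 p (11.3, adjusted p = 0.0114), where 11.7% of all genes were higher. At equal calling depth it also passed (10.7, adjusted p = 0.0488), where 4.18% were higher. Without the 2 libraries of lowest depth it did not pass (8.72, adjusted p = 0.363). The 12 ranks of Dgat2 were most like those of Ndufa12 (Pearson r = 0.87), Dlx4 (0.83) and Zfp850 (0.83), a description over 12 libraries that share depth and group.

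Dgat1, the acyltransferase that also uses imported fatty acids for triglyceride, ranked at 52.9, 45.9 and 25.1 in scramble and at 40.3, 60.8 and 68.0 in CPT1a knockout. With acetate its ranks were 61.3, 81.8 and 52.8, and in KAT2a knockout 51.3, 65.3 and 83.3. The groups overlapped in each comparison. The difference from scramble was 25.3 (SE 12.2, adjusted p = 0.252) in KAT2a knockout, 24.0 (SE 12.2, adjusted p = 0.262) with acetate and 15.1 (SE 12.2, adjusted p = 0.456) in CPT1a knockout, with limma. The last was 6.99 without scramble replicate 3, 9.25 without CPT1a knockout replicate 3 and 23.1 without CPT1a knockout replicate 1. The difference with acetate ran from 15.8 without acetate replicate 2 to 30.3 without acetate replicate 3. That in KAT2a knockout ran from 17.0 without KAT2a knockout replicate 3 to 33.0 without KAT2a knockout replicate 1. Ranked by −log10 p, the differences with acetate (24.7, adjusted p = 0.0494) and in CPT1a knockout (24.4, adjusted p = 0.0421) passed the threshold. In that ranking 11.7% and 16.1% of all genes were higher. At equal calling depth the differences were 24.8 (adjusted p = 0.139) and 18.7 (adjusted p = 0.231), and neither passed.

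Slc27a1 ranked at 67.1, 29.1 and 80.6 in scramble, 25.4, 53.1 and 9.59 in CPT1a knockout, 24.2, 51.5 and 17.7 with acetate, and 46.1, 51.1 and 46.1 in KAT2a knockout. Scramble had both the highest values and a low one. CPT1a knockout was 29.6 percentiles below scramble in the mean, a fitted difference of -29.6 (SE 13.6, 95% interval -58.4 to -0.766, limma adjusted p = 0.174). Leaving out 1 library moved it from -44.5 (without scramble replicate 2) to -18.7 (without scramble replicate 3), and CPT1a knockout replicate 3 left out gave -19.7. Ranked by −log10 p it was -29.0 and passed (adjusted p = 0.0343), where 16.6% of all genes were lower. At equal calling depth it was -32.7 and did not pass (adjusted p = 0.0822). Acetate did not move the mean of the knockout beyond its error, with a difference of 1.74 and a 95% interval of -27.1 to 30.5.

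Slc27a4, the transport protein of the intestine and skin, ranked at 17.6, 25.7 and 5.50 in scramble, 31.3, 11.64 and 50.9 in CPT1a knockout, 16.2, 38.2 and 32.3 with acetate, and 13.3, 16.9 and 26.7 in KAT2a knockout. Fabp5 ranked at 41.5, 31.3 and 11.04 in scramble, 11.2, 33.8 and 17.9 in CPT1a knockout, 27.7, 37.8 and 36.0 with acetate, and 16.3, 23.8 and 38.1 in KAT2a knockout. Both genes overlapped between all groups. The largest difference of Slc27a4 was 15.01 in CPT1a knockout against scramble (95% interval -4.04 to 34.1). It ran from 5.19 without CPT1a knockout replicate 3 to 24.8 without CPT1a knockout replicate 2. The largest of Fabp5 was 12.9 between acetate and no acetate (95% interval -5.46 to 31.2). It ran from 8.00 without CPT1a knockout replicate 1 to 19.3 without CPT1a knockout replicate 2. The intervals of all 5 genes leave room for shifts of at least several percentiles, so these data do not show equal ranks.

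The width of the marked promoter was compared next, as the summed length of all peaks that touch the promoter windows. Slc27a4 and Dgat2 were wider, relative to the other genes of the same library, in all 3 groups compared with scramble, whereas Fabp5, Slc27a1 and Dgat1 did not pass the test and no gene differed between CPT1a knockout with and without acetate. These relative widths were log2 widths minus the library's median over the 10777 genes. That makes 2 of 5 genes wider and none narrower in each comparison with scramble, where 13.7% of all genes were wider and 7.47% narrower in CPT1a knockout, 10.6% and 6.17% in KAT2a knockout, and 11.1% and 6.27% with acetate. Markers moved as well: 2, 3 and 3 of the 6 tested epithelial markers were wider in these comparisons (median difference over the 6 of 0.37, 0.68 and 0.41 log2 units), and the 1 tested fibroblast marker, Pdgfra, was wider in CPT1a knockout and with acetate. Their part in the result was not tested. Between acetate and no acetate limma called 0% of all genes, and 6.02% had an unadjusted p under 0.05 against 0 of the 5.

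The result for Slc27a4 and Dgat2 rests on that centring. In base pairs, Slc27a4 was 794, 1028 and 819 wide in scramble, 1097, 1022 and 1002 in CPT1a knockout, 1417, 894 and 1184 with acetate, and 1306, 1576 and 928 in KAT2a knockout. Dgat2 was 1384, 866 and 624 wide in scramble, 1219, 1124 and 929 in CPT1a knockout, 1070, 951 and 1303 with acetate, and 1452, 1277 and 1279 in KAT2a knockout. In base pairs the groups overlapped for both genes in every comparison. The median promoter of the 10777 genes, in contrast, was 2743 to 3411 bp wide in scramble and 1658 to 2566 bp in the other 9 libraries. The mean width of both genes in each other group was above their scramble mean, while the typical promoter of those libraries was narrower.

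Centred, Slc27a4 differed from scramble by 0.83 log2 units in CPT1a knockout (SE 0.20, adjusted p = 0.0116), 0.85 in KAT2a knockout (SE 0.20, adjusted p = 0.0129) and 0.79 with acetate (SE 0.20, adjusted p = 0.0178). Dgat2 differed by 0.83 (SE 0.20, adjusted p = 0.0104), 0.90 (SE 0.20, adjusted p = 0.00882) and 0.68 (SE 0.20, adjusted p = 0.0318). Every knockout library lay above every scramble library for both genes, as was so for 21.8% of all genes in CPT1a knockout, 22.2% in KAT2a knockout and 20.8% with acetate. Without centring the differences were 0.25, 0.50 and 0.39 for Slc27a4 and 0.26, 0.55 and 0.28 for Dgat2, and none passed (adjusted p from 0.142 to 0.434). In that scale the median gene shifted by -0.54, -0.32 and -0.38 log2 units, and of all genes 0.52% were wider and 61.6% narrower in CPT1a knockout, 0.733% and 21.8% in KAT2a knockout, and 0.51% and 33.2% with acetate. With acetate, leaving out acetate replicate 1 or scramble replicate 3 left 0 of 5 genes called (without scramble replicate 3 the Dgat2 difference was 0.44), and leaving out acetate replicate 2, acetate replicate 3 or scramble replicate 1 left 1. In KAT2a knockout 1 gene, Dgat2, was left without KAT2a knockout replicate 2. At equal calling depth, centred, the Slc27a4 differences were 0.78, 0.81 and 0.75 (adjusted p from 0.0135 to 0.0194). Those of Dgat2 were 0.86, 0.94 and 0.72 (adjusted p from 0.00307 to 0.0133).

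**Figure D5:**
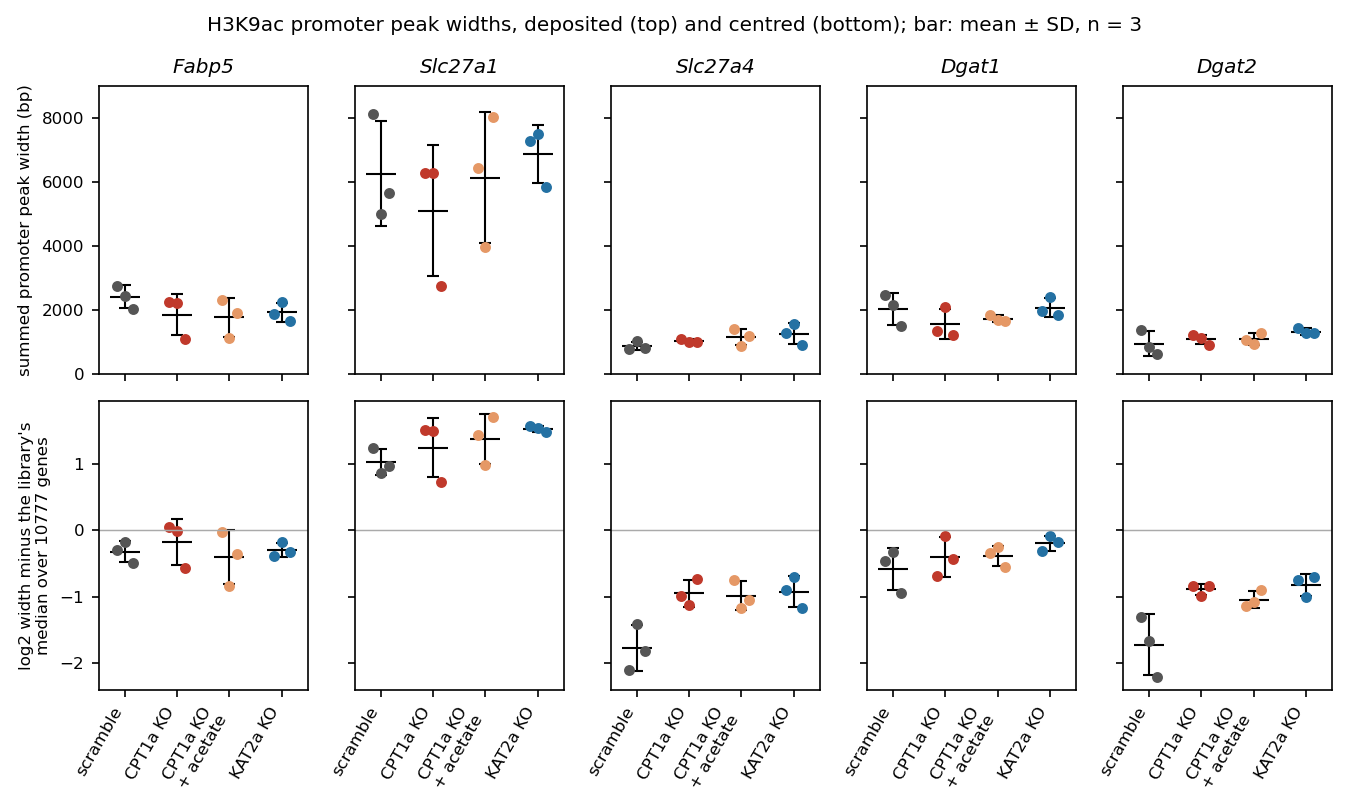
Summed width of the promoter peaks of each called gene by group, in bp (top) and as log2 width minus the library's median over 10777 genes (bottom). Points are libraries and bars the mean ± SD (n = 3); for Slc27a4 and Dgat2 the groups overlap in bp, while every scramble point lies below the knockout points after centring.

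Slc27a1 had the largest summed width, at 2752 to 8115 bp, over windows at 9 annotated starts. Its strongest single peak was 1145 to 5027 bp wide. Its relative width in KAT2a knockout was 0.51 log2 units above scramble (SE 0.23, adjusted p = 0.15), and the groups did not overlap. In CPT1a knockout and with acetate the difference was 0.22 (adjusted p = 0.53) and 0.35 (adjusted p = 0.309), and those groups overlapped. Leaving out 1 library moved the former from 0.08 to 0.48 and the latter from 0.18 to 0.55. Without centring the differences of Slc27a1 were -0.36 in CPT1a knockout, 0.16 in KAT2a knockout and -0.05 with acetate, so the direction turned in the first and last, and none passed. At equal calling depth, centred and with 10195 genes tested, Slc27a1 was wider by 1.02 in CPT1a knockout (adjusted p = 0.0208), 1.19 in KAT2a knockout (adjusted p = 0.0136) and 1.13 with acetate (adjusted p = 0.0167). Slc27a4 and Dgat2 passed there as well, and 14.4%, 11.9% and 11.4% of those genes were wider. Slc27a1 also passed in all 3 comparisons when the 2 libraries of lowest depth, CPT1a knockout replicate 3 and CPT1a knockout with acetate replicate 2, were left out. That choice was made after seeing the data, and in it Dgat2 no longer passed with acetate. Dgat1 was 1234 to 2469 bp wide and differed by 0.39 (SE 0.17, adjusted p = 0.127) in KAT2a knockout, again without overlap between the groups. Leaving out 1 library moved this from 0.20 (without scramble replicate 3) to 0.51 (without scramble replicate 2). Without centring it was 0.04, and -0.39 in CPT1a knockout and -0.21 with acetate, and none passed. Centred, 4 of the 5 genes in KAT2a knockout thus lay above scramble without overlap, against 22.2% of all genes, and in the other 2 comparisons with scramble 2 of 5. In base pairs KAT2a knockout and scramble overlapped for all 5 genes. Fabp5 was 1115 to 2769 bp wide and its largest centred difference was -0.23 (SE 0.20, adjusted p = 0.893), between acetate and no acetate. Leaving out 1 library moved this from -0.43 to -0.015. Without centring it was -0.06, and the largest was then -0.49, with acetate against scramble (adjusted p = 0.186).

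Peaks near the start were also placed differently in scramble, a pattern noticed in these values and given without a test. The first TSS of Slc27a4 was 150, 153 and 219 bp from the nearest peak base in scramble and 0 to 33 bp in the other 9 lists. For Dgat1 the distances were 162, 79 and 160 bp in scramble and 0 to 63 bp elsewhere. The first TSS of Fabp5 was covered in all lists but scramble replicates 2 and 3, where 39 and 37 bp were left, and that of Dgat2 was covered in all 12. Slc27a1 did not share the pattern, with 194, 86 and 643 bp in scramble and 0 to 441 bp in the other lists. The strongest Dgat1 summit was 596, 537 and 596 bp downstream in scramble and 399 to 526 bp in the others. The shift was not particular to these genes: 11.7% of 10101 genes had larger distances in all 3 scramble lists than in the other 9, and 0.347% had smaller ones. Peaks covered the first TSS of 57.6% to 76.6% of these genes in scramble and 77.0% to 95.8% in the other 9 lists.

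The wider set of fatty acid genes gives the setting of these 10. Of 63 genes for uptake and lipoproteins, other binding and transport proteins, acyl-CoA synthetases, glycerolipid synthesis, and droplets and lipolysis, 32 were called in all 12 lists and 26 in none, close to the 49.5% and 45.1% of all protein-coding genes. Glycerolipid synthesis had the most called members, 11 of 14, followed by acyl-CoA synthetases with 4 of 6. Uptake and lipoprotein genes had 7 of 13, among them Cav1, Got2 and Scarb1, and droplet and lipolysis genes 8 of 19. The remaining binding and transport proteins had 2 of 11. Those were Dbi and Scp2, the acyl-CoA binding protein and sterol carrier protein, whereas Fabp1, Fabp2, Fabp6, Fabp7, Fabp9, Fabp12, Slc27a2, Slc27a5 and Slc27a6 had no call in any list. Of the 15 genes named Fabp or Slc27a in both sets, 3 were thus called in all lists.

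Among the 5 genes called in some lists only, picked out after their values were seen, Bscl2 (seipin, which shapes lipid droplets) was called in 3 of 3 scramble and 3 of 3 KAT2a knockout lists and in 0 of 6 CPT1a knockout lists with or without acetate. Vldlr, a lipoprotein receptor, was called in 3 of 3 KAT2a knockout lists, 1 CPT1a knockout list and no other. Of all genes, 5.36% were called in some lists only. No test was run on these calls. At equal calling depth Bscl2 was called in 2 scramble and 3 KAT2a knockout lists, and Vldlr in 1 KAT2a knockout list.

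Of the 32 ranked genes of the wider set, Scp2 alone changed rank against scramble, beside 9.98%, 4.08% and 5.55% of all genes in the 3 comparisons. Its mean rank was 74.2 in scramble, 26.9 in CPT1a knockout (difference -47.3, SE 8.58, adjusted p = 0.0050), 23.0 in KAT2a knockout (-51.2, SE 8.58, adjusted p = 0.00593) and 31.2 with acetate (-43.0, SE 8.58, adjusted p = 0.011). No gene of the set changed rank between acetate and no acetate. The median rank difference of the set was 4.61 in CPT1a knockout, 2.85 in KAT2a knockout and -3.16 with acetate, against 0.22, 0.10 and 0.15 over all genes. That of the 5 uptake, binding and triglyceride genes was -3.04, 2.68 and 9.04.

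In relative width, 3 of the 32 tested genes of the wider set were wider and 2 narrower in CPT1a knockout, 2 and 2 in KAT2a knockout, and 2 and 1 with acetate, shares near or below the 13.7% and 7.47%, 10.6% and 6.17%, and 11.1% and 6.27% of all genes. The following were the 3 with the largest differences in each comparison, named by width after their values were seen. Gpam, the mitochondrial acyltransferase that starts glycerolipid synthesis, was narrower in all 3 comparisons (-0.61, -0.59 and -0.44 log2 units, adjusted p from 0.000586 to 0.00644). Scarb1, a lipoprotein receptor, was wider in all 3 (0.63, 0.52 and 0.51, adjusted p from 0.000611 to 0.00364). Plin2, a droplet coat protein, was narrower in CPT1a knockout (-0.48, adjusted p = 0.0113) and KAT2a knockout (-0.44, adjusted p = 0.0224), and Dbi was wider with acetate (0.26, adjusted p = 0.0384). Without centring, Gpam was narrower by -1.19, -0.94 and -0.84 and Plin2 by -1.06 and -0.79, and both still passed in these comparisons (adjusted p from 0.000335 to 0.00855). In that scale 61.6% of all genes were narrower in CPT1a knockout, 21.8% in KAT2a knockout and 33.2% with acetate. The median gene shifted by -0.54, -0.32 and -0.38 log2 units. The Scarb1 differences fell to 0.05, 0.18 and 0.11 without centring and did not pass, and that of Dbi with acetate changed sign to -0.14 (adjusted p = 0.453).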

How the data were processed

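The authors deposited 1 narrowPeak list for each of the 12 H3K9ac ChIPmentation libraries. The 12 input libraries were not analysed here. The submitters' processing notes name Bowtie2, SAMtools, MACS2, deepTools and the builds mm10 and dm6, while the study's methods name BWA and Picard, so the aligner is not settled, and versions are not used here. The labels and methods also give different antibody catalogue numbers. The deposited fold enrichment is the ratio of summit pileup to local background within 1 library. Significance was deposited by the authors as -log10 p-value and -log10 q-value, and their integer score was not used. Values were not scaled between libraries by the authors, so ranks within a list were compared and total H3K9ac was not measured. The exogenous chromatin described in the methods was not used.

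Promoter windows spanned 1 kb on either side of each GENCODE vM21 TSS (mm10 is GRCm38), with an overlap of at least 1 bp. Ranks and log2 widths were fitted with limma (version 3.58.1, R 4.3.3, eBayes with trend and robust) on all 12 libraries and 10777 genes. Unless exact permutation is named, p-values are limma's, two-sided, and adjusted by Benjamini-Hochberg over all genes of 1 comparison. Depth was obtained by inverting the formulas of MACS2. At equal depth, pileup and background were scaled to the lowest depth and peaks with a -log10 p of at least 5 were kept. All fitting code was tested on simulated data. The gene lists were chosen with earlier results of these data known. Named genes were all 10 members, up to 3 genes of the wider set per comparison with the largest called rank difference, the neighbours of the members, and the 3 genes closest in rank to the member with the smallest F-test p. Replicate numbers were not used to pair the samples in the main fits. Alternatives were other windows, rank measures, width measures, depth, GC content and left-out libraries.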

Additional observations from a re-analysis of the deposited data

How the results depend on the processing

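The 5 genes called in all 12 lists and the 4 called in none were the same with windows of 500 bp or 2 kb, with 200 bp of overlap and with a -log10 q of at least 5. At equal calling depth 5 were called in all and 5 in none. Rank calls against scramble, 0 of 5 in each comparison, became 2 in CPT1a knockout (Dgat1 and Slc27a1) and 2 with acetate (Dgat1 and Dgat2) when genes were ranked by -log10 p, and 1 with acetate (Dgat2) at equal calling depth. In ranks by -log10 p, 16.1% of all genes rose and 16.6% fell in CPT1a knockout, against 4.72% and 5.26%. With acetate 11.7% rose and 12.9% fell by -log10 p, and 4.18% and 6.76% at equal calling depth. Leaving out any 1 library left 0 rank calls in every comparison. The 2 width calls in CPT1a knockout became 1 with only its 6 libraries, 1 by covered base pairs, 1 by the strongest peak and 0 without centring. In KAT2a knockout they became 1 by the strongest peak and 0 without centring. With acetate they became 0 with only its 6 libraries, 1 by covered base pairs, 0 by the strongest peak, 1 with close peaks merged and 0 without centring. Leaving out 1 library gave 2 in CPT1a knockout, 1 to 3 in KAT2a knockout and 0 to 2 with acetate. At equal calling depth Slc27a1 passed beside Slc27a4 and Dgat2 in each comparison with scramble, where 14.4%, 11.9% and 11.4% of genes were wider. By covered base pairs 11.8% of all genes were wider in CPT1a knockout and 4.43% with acetate. By the strongest peak 7.27% were wider in CPT1a knockout, 5.86% in KAT2a knockout and 5.16% with acetate. No result changed direction with a call, and the causes were not tested beyond the smaller number of samples in the 6-library fits. With the replicate number as a block, 0 rank calls and 2 width calls against scramble remained in number, and of 18 pairs of libraries sharing a number none had deviations correlated above 0.1 (from -0.062 to 0.067). Precision is limited by 3 libraries a group and by the shallow lists.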
